A study of Rattus norvegicus with 8 samples.

Results

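Hepatocyte identity is held by a network of transcription factors, of which 8 were followed here in the livers of diabetic rats. They were Foxa1, Foxa2, Foxa3, Cebpa, Cebpb, Onecut1, Prox1 and Gata4. Every array probe set whose platform annotation gave 1 of these symbols and no other was taken, which gave 8 genes of 14217 named on the array and 15 probe sets of 31042, the manufacturer's control sets aside. Cebpa had 5 sets, Onecut1, Prox1 and Gata4 had 2 each, and the others had 1 each. A signal here is the linear MAS5 value of 1 probe set on 1 array.

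Goto-Kakizaki (GK) rats, a lean inbred model of type 2 diabetes, supplied the livers. All were male, bought at 5 weeks of age, kept first on the control diet and examined at 18 weeks. For 12 weeks the control group (4 rats) ate AIN-93G, a purified rodent diet, and the persimmon peel group (4 rats) ate that diet with an extract of persimmon peel, whose dose is not given in the sources used here. Both groups share the strain, and each liver gave total RNA for 1 array.

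The FOXA proteins are pioneer factors that open closed chromatin at liver enhancers. C/EBPα and C/EBPβ, the products of Cebpa and Cebpb, are leucine zipper factors that pair with each other. C/EBPα maintains metabolic genes in the resting hepatocyte, and C/EBPβ is used more in the acute phase response and in regeneration. Onecut1, also called HNF6, is a cut-homeodomain factor, Prox1 is a homeodomain factor that also acts as a corepressor of nuclear receptors, and Gata4 is a zinc finger factor that in adult liver also marks sinusoidal endothelial cells.

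No probe set of the 8 factors passed the test between the diets. The clearest feature was a wide difference in Onecut1 between livers of the same diet. The main probe set of Onecut1 had the largest spread within diets of all 15521 probe sets tested, with signals from 141 to 1663. Among sets with an unadjusted limma p under 0.05, 3 Cebpa sets, the Foxa3 set and the brighter Prox1 set were higher on persimmon peel. Cebpb and the dimmer Gata4 set were lower. Of the 14 member sets above the signal filter, 0 were called higher and 0 lower at an adjusted p under 0.05, where 0.425% of all tested sets were called higher, 4.53% lower and 4.95% either way (limma, Benjamini-Hochberg over all tested sets). Before adjustment 7 of the 14 (50%) had a p under 0.05, against 19.6% of all tested sets. Of these, 5 were higher on the persimmon peel diet (35.7% of the 14, against 6.19%) and 2 lower (14.3%, against 13.4%). Among the 2 lower sets, the dimmer Gata4 set passed the filter only through the control livers. The mean was higher on that diet in 8 of the 14 sets (57.1%), against 48.6% of all tested sets. The 5 higher sets belong to 3 genes, and 3 of them to Cebpa alone. The median change of the tested member sets was 0.13 on the log2 scale, beside -0.0071 for all tested sets.

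**Figure D1:**
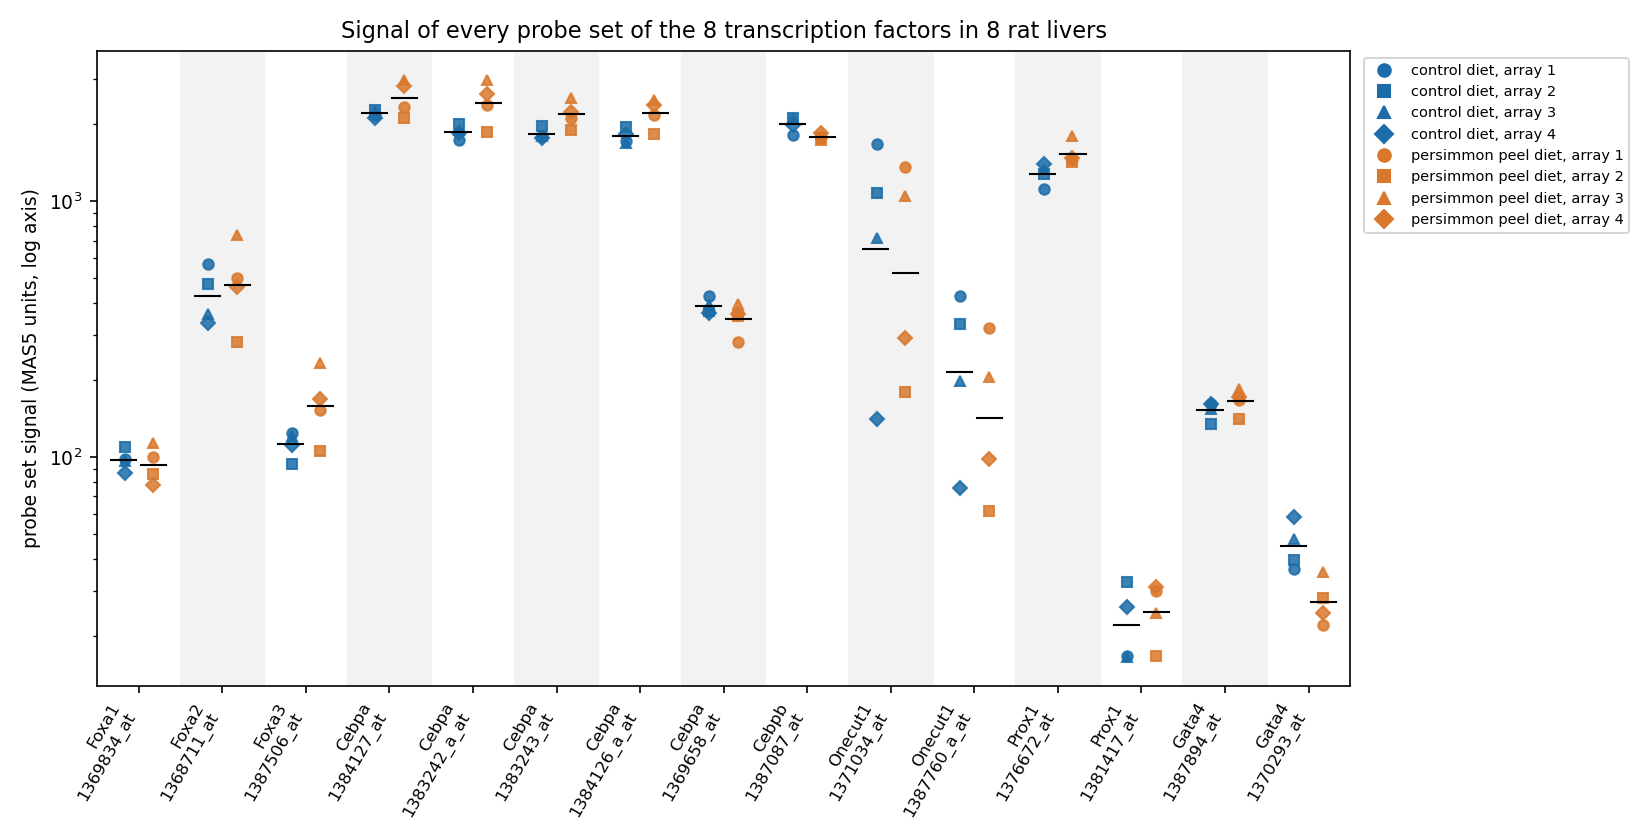
Signal of each of the 15 probe sets (log axis) in 4 control livers (blue) and 4 persimmon peel livers (orange), with the array number as the symbol and a bar at the geometric mean of each diet. The Onecut1 sets spread over 11.8-fold and 6.91-fold across the 8 livers, and the diets lie apart only in Prox1 1376672_at and Gata4 1370293_at.

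Of 4 ratios between control sets along a transcript, both of beta-actin separated the diets and both of GAPDH overlapped. The beta-actin control set from mid-transcript, relative to that from the 3' end, stood at -0.76 ± 0.02 on the log2 scale in the control livers and at -1.06 ± 0.11 in the persimmon peel livers (SD, n = 4 each). The diets did not overlap in it (p = 0.0286 by a two-sided exact permutation test, which can give no smaller p here, or 0.0571 adjusted over 4 ratios). The beta-actin ratio of the 5' to the 3' set gave the same p, with -1.68 ± 0.12 and -1.97 ± 0.22. For GAPDH the difference between the diets was -0.0063 in the first kind of ratio (exact permutation p = 0.857) and -0.14 in the second (exact permutation p = 0.0857). With the first of these beta-actin values held as a covariate in limma, 0 of the 14 member sets passed at an adjusted p under 0.05 and 2 at an unadjusted one. Over all sets these counts were 0 and 543. Because the diets did not overlap in this ratio, the fit cannot separate diet from it, and these counts decide nothing about either. Persimmon peel array 3 had the highest median signal of the 8 arrays (39.2, against 33.2 to 37.4 in the others) and the highest value in 9 of the 14 member sets, where it was highest in 38.3% of all tested sets. All 9 hepatocyte marker genes were measured, and the sum of their brightest sets ran from 79761 to 85728 in the control livers and from 73326 to 77239 in the persimmon peel livers. The part of this lower sum in the results was not tested, nor was the part of array scaling in the sum. In whole liver, fewer cells of a type and less RNA per cell cannot be told apart.

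The upstream regions of 4 of the 8 genes were matched by symbol in RefSeq's promoter windows, and the 250 bases before the annotated start are shown on build GRCr8, each 5′ to 3′ on the strand of the gene. All 4 matched genes are shown, whatever their motifs or signals. They are Foxa2 (chr3:155927509-155927758, minus strand), Foxa3 (chr1:87799486-87799735, minus strand), Cebpa (chr1:96896334-96896583, plus strand) and Cebpb (chr3:176816755-176817004, plus strand). Capitals mark every match, on either strand, to TATAAA (the TATA box core), GGGCGG (the GC box core), CCAAT (the core of the box of that name), CACGTG (an E-box), ATTGAT (the ONECUT core), TGTTTAC (a FOXA core) or TTGCNNCAA (a C/EBP palindrome).
Foxa2: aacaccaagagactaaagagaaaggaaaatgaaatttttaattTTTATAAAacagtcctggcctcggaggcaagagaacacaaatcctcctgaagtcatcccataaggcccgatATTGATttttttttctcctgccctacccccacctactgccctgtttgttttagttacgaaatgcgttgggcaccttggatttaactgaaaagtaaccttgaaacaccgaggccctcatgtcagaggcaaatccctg
Foxa3: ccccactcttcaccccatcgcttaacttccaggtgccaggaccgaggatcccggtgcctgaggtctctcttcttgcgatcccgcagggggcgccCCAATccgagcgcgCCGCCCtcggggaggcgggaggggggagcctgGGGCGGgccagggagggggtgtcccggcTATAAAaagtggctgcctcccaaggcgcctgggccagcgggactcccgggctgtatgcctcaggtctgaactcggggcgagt
Cebpa: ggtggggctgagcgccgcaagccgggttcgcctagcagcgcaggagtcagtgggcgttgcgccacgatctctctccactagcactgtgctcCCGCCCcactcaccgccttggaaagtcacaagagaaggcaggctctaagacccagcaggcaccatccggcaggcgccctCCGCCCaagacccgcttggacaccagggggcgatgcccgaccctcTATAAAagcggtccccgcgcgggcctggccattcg
Cebpb: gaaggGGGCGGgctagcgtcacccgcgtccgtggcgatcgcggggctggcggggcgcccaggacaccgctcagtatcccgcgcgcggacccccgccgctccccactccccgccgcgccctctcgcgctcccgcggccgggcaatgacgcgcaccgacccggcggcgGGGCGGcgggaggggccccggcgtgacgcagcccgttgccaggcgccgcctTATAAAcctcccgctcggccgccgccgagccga

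TATAAA was found in all 4 windows and in 13.1% of 27457 RefSeq windows of the same length. It ends 30 bases before the start in Cebpa and 28 bases before it in Cebpb, but 77 bases before it in Foxa3. In Foxa2 it occurs on both strands in an overlapping pair between 207 and 200 bases before the start. The Foxa2 window alone held ATTGAT, from 136 to 131 bases before the start, a core present in 6.99% of all windows. GGGCGG was found in Foxa3, Cebpa and Cebpb, with 2 matches each, and in 32.4% of all windows, and CCAAT in Foxa3 and in 34.3% of all windows. CACGTG (5.79% of all windows), TGTTTAC (3.25%) and TTGCNNCAA (1.74%) had no match in these 4 windows. The Foxa2 window had a GC content of 42.8%, Foxa3 69.6%, Cebpa 67.2% and Cebpb 80%, where the median of all windows was 52%. A match describes these letters only, and binding was not measured.

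Among the FOXA genes, Foxa1 differed least between the diets. Its set 1369834_at gave 98.0, 109, 96.3 and 86.9 in control livers 1 to 4 and 100.004, 85.8, 113 and 77.5 in persimmon peel livers 1 to 4. The diets overlapped widely, with a log2 change of -0.06 (SE 0.15, 95% interval -0.37 to 0.25, adjusted p = 0.857). For Foxa2, set 1368711_at, the signals were 565, 474, 362 and 335 in the control livers and 499, 282, 739 and 461 in the persimmon peel livers. The highest and the lowest of the 8 values were both on the persimmon peel diet, and the change was 0.14 (SE 0.23, 95% interval -0.35 to 0.63, adjusted p = 0.779). Foxa3, the FOXA family member kept mainly by gut and liver cells, gave 124, 94.1, 121 and 111 with set 1387506_at in the control livers and 152, 105, 233 and 168 in the persimmon peel livers. Livers 1, 3 and 4 of the persimmon peel diet lay above every control liver and liver 2 lay among them. The change of 0.50 (SE 0.19, 95% interval 0.09 to 0.91) had an adjusted p of 0.16. Without persimmon peel liver 2 the Foxa3 change was 0.70 and passed (adjusted p = 0.0181), and without liver 3 it was 0.31 (adjusted p = 0.338).

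Cebpa had 4 bright sets and 1 dimmer set, and they did not move alike. The brightest, 1384127_at, gave 2174, 2274, 2252 and 2104 in the control livers and 2327, 2114, 2977 and 2822 in the persimmon peel livers. Set 1383242_a_at gave 1736, 1991, 1901 and 1839 in the control livers and 2371, 1858, 2979 and 2624 in the persimmon peel livers. In both sets persimmon peel livers 1, 3 and 4 exceeded all control livers and liver 2 did not. The other bright sets, 1383243_at and 1384126_a_at, had the same arrangement. Their means went from 1829 ± 84.5 to 2191 ± 264 and from 1793 ± 119 to 2214 ± 282 (SD, n = 4 each).

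The log2 changes of the 4 bright Cebpa sets were 0.20, 0.38, 0.25 and 0.30 in that order (SE 0.10, 0.12, 0.09 and 0.09), with adjusted p of 0.273, 0.0781, 0.118 and 0.0887. The pair 1383242_a_at and 1383243_at was designed from one sequence record and the pair 1384126_a_at and 1384127_at from another, so these sets are not independent. Without persimmon peel liver 2, 3 of the 4 passed, at 0.51 (adjusted p = 0.0035), 0.32 (0.032) and 0.38 (0.0117) for 1383242_a_at, 1383243_at and 1384126_a_at. Without persimmon peel liver 3 the 4 changes were 0.13, 0.28, 0.18 and 0.24, with adjusted p from 0.173 to 0.494. The same 3 sets passed after quantile normalization, at 0.45, 0.31 and 0.36 (adjusted p = 0.0237, 0.0207 and 0.0166). With the beta-actin ratio as a covariate 3 of the 4 bright sets changed sign, to -0.0155 for 1384127_at, -0.11 for 1383242_a_at and -0.0565 for 1384126_a_at. The diets did not overlap in that ratio, so this fit cannot separate diet from the ratio.

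The dimmer Cebpa set, 1369658_at, gave 425, 373, 391 and 364 in the control livers and 281, 355, 395 and 362 in the persimmon peel livers. Here 3 persimmon peel livers lay below every control liver, and the change was -0.16 (SE 0.12, adjusted p = 0.46). Its difference from the brightest set of the gene was itself compared between the diets. That difference was -2.51 in the control and -2.87 in the persimmon peel livers, a change of -0.37 (SE 0.13, unadjusted p = 0.0199, adjusted p = 0.0904 over 2981 such pairs on the array). The position of each set along the transcript was not analysed here.

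Cebpb was the least variable of the members. Set 1387087_at gave 1812, 2116, 2106 and 1984 in the control livers and 1771, 1757, 1728 and 1835 in the persimmon peel livers. Of the persimmon peel livers, 3 lay below all control livers and liver 4 lay just above control liver 1. The change was -0.17 (SE 0.08, 95% interval -0.34 to -0.01), with an adjusted p of 0.209. It stayed between -0.22 and -0.12 in all 20 alternatives, and the adjusted p was 0.182 or more in each.

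**Figure D2:**
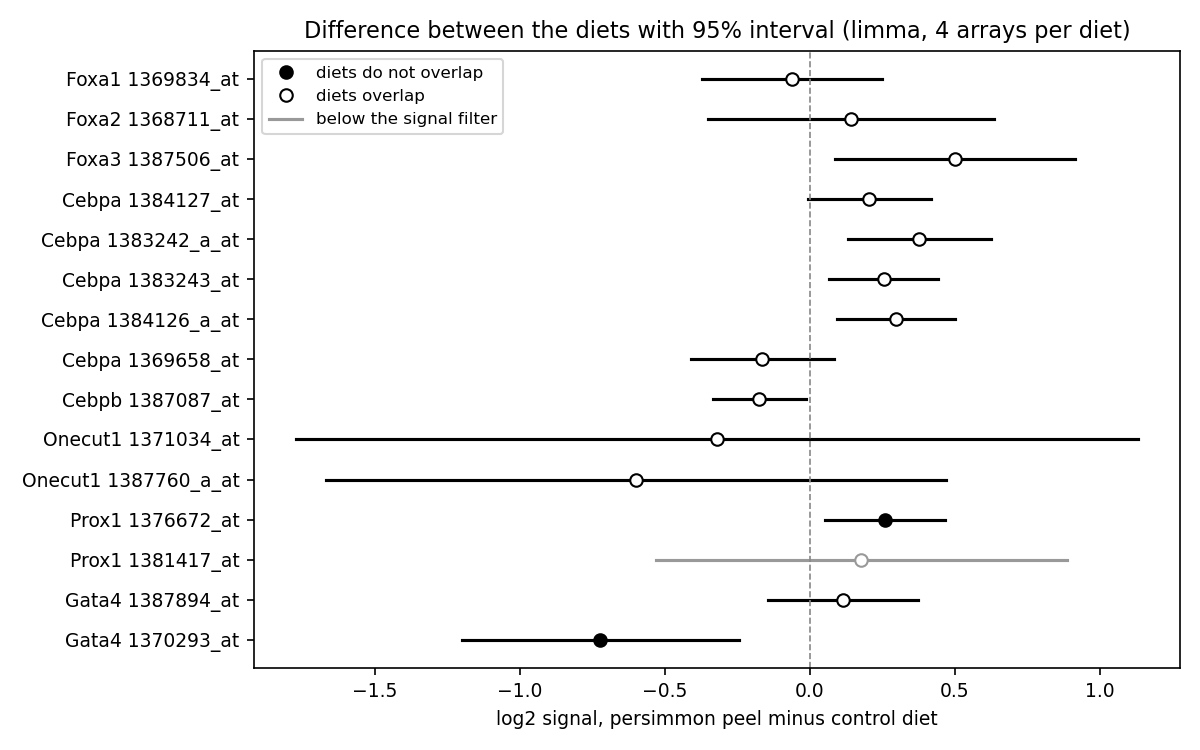
Difference in log2 signal between the diets (persimmon peel minus control) for each probe set, with the 95% interval from limma. Filled points mark the 2 sets whose diets do not overlap, the grey line marks the Prox1 set below the signal filter, and the intervals of the 2 Onecut1 sets are the widest.

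Prox1 had 1 bright and 1 dim set. The bright set 1376672_at gave 1118, 1270, 1332 and 1398 in the control livers and 1453, 1414, 1796 and 1467 in the persimmon peel livers. All persimmon peel values lay above all control values, by a narrow margin between control liver 4 and persimmon peel liver 2. The change was 0.26 (SE 0.10, 95% interval 0.05 to 0.47, adjusted p = 0.15). After quantile normalization it was 0.31 and passed (adjusted p = 0.0343). The dim set 1381417_at had signals from 16.5 to 32.5 and was below the filter, while the 27 bacterial control sets reached at most 14.5. With no filter its change was 0.18 (SE 0.33, adjusted p = 0.866).

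The Gata4 sets differed from each other. The brighter set 1387894_at gave 162, 134, 154 and 161 in the control livers and 167, 140.2, 185 and 171 in the persimmon peel livers, a change of 0.11 (SE 0.12, adjusted p = 0.645) with overlap. The dimmer set 1370293_at gave 36.3, 39.6, 47.8 and 58.3 in the control livers and 22.1, 28.2, 35.6 and 24.4 in the persimmon peel livers. All 4 persimmon peel values were below the control values, for a change of -0.72 (SE 0.22, 95% interval -1.20 to -0.24, adjusted p = 0.08). The lowest mean signal tested was 34.4. With 45.5 ± 9.77 in the control and 27.6 ± 5.91 in the persimmon peel livers (SD, n = 4 each), this set passed the filter only through the control livers. Its adjusted p was under 0.05 after quantile normalization (-0.74, 0.049), median centring (-0.74, 0.0433) and with array weights (-0.78, 0.0463), but 0.191 with no filter and 0.232 without control liver 4 (-0.60).

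Of the 6 pairs of tested sets within a member gene, only the Gata4 pair differed between the diets at an adjusted p under 0.05. The dimmer set minus the brighter set was -1.77 in the control and -2.60 in the persimmon peel livers, a change of -0.84 (SE 0.19, adjusted p = 0.0213 over 2981 pairs). This call rests on a set whose persimmon peel mean lies below the filter's limit, so it is given as a value and supports nothing further. Over the array 13.2% of such pairs were called, and in 12% the other set was lower relative to the brightest on the persimmon peel diet. Of the member sets 2 of 14 (14.3%) had diets that did not overlap, Prox1 1376672_at and Gata4 1370293_at, where the diets did not overlap in 12.9% of all tested sets (2.87% higher and 10% lower on the persimmon peel diet).

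Onecut1 varied far more between livers than between diets. The main set 1371034_at gave 1663, 1075, 717 and 141 in control livers 1 to 4 and 1360, 179, 1046 and 292 in persimmon peel livers 1 to 4. Each diet therefore held livers with high and livers with low values. The second set, 1387760_a_at, gave 426, 330, 198 and 75.6 in the control livers and 320.1, 61.7, 205 and 98.3 in the persimmon peel livers. Control liver 4 and persimmon peel livers 2 and 4 were lowest in both sets, and control liver 1 was highest in both. The range within a diet was 11.8-fold in the control and 7.62-fold in the persimmon peel livers for the main set, and 5.64-fold and 5.19-fold for the second.

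The log2 change of Onecut1 between the diets was -0.32 (SE 0.68, 95% interval -1.77 to 1.13, adjusted p = 0.839) in the main set and -0.60 (SE 0.50, 95% interval -1.67 to 0.47, adjusted p = 0.543) in the second. A diet difference within these wide intervals was not detectable with 4 livers per diet. The main set changed sign without control liver 1 (0.13) or without persimmon peel liver 2 (0.19). Across the 8 livers the 2 sets followed each other (Pearson r = 0.97, exact permutation p adjusted over 7 pairs of sets 0.0015, Spearman rho with adjusted p = 0.0078). Without the 2 livers farthest from the median of the main set r was 0.96.

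The within-diet SD of the main Onecut1 set was 1.49 on the log2 scale, and no tested set had a larger one. For the second set it was 1.08, and 12 tested sets had a larger one. Of the 776 sets in the same signal bin as each, 0 had a larger SD than the Onecut1 set. Foxa2 had an SD of 0.47, with 3 of the 776 sets in its bin above it, and Foxa3 0.36 with 48 above it. At the other end, the SD of Cebpb was 0.078, and 707 of the 776 sets in its bin varied more. The median within-diet SD was 0.18 over the tested member sets and 0.19 over all tested sets.

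**Figure D3:**
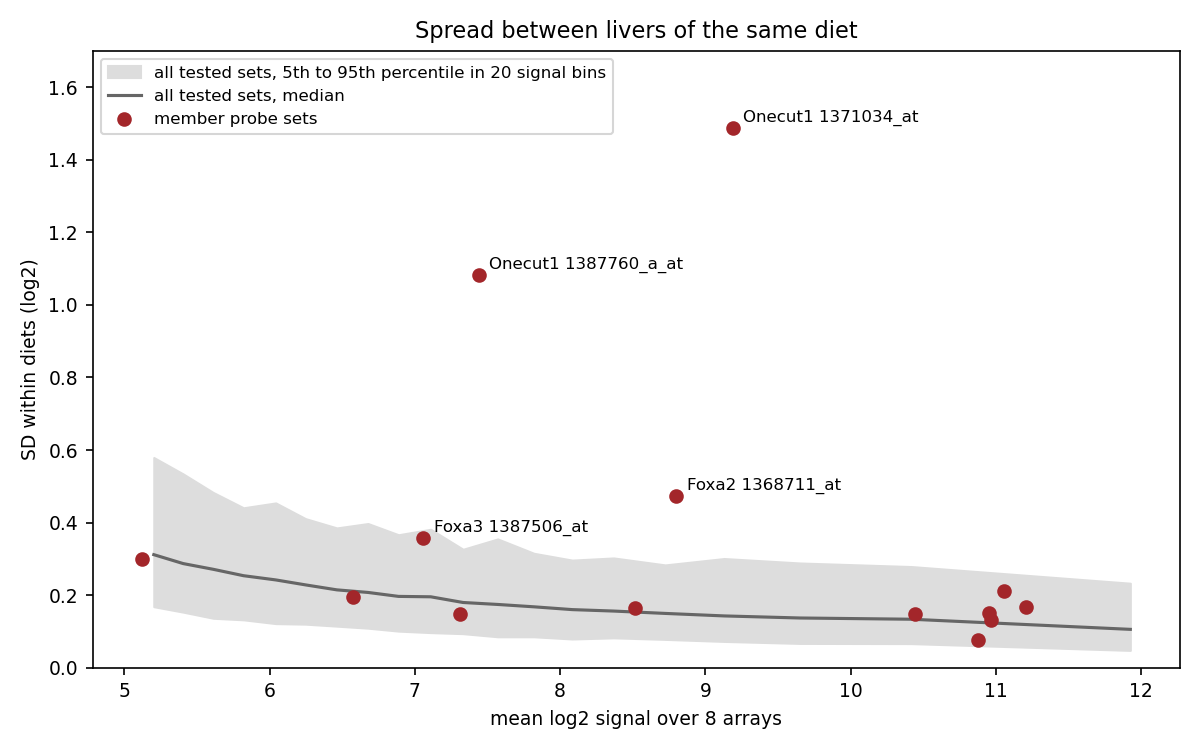
SD of log2 signal between livers of the same diet against mean log2 signal. The grey band holds the 5th to 95th percentile of all tested sets in 20 signal bins, red points are the 14 tested member sets, and the 2 Onecut1 sets (1.49 and 1.08) and Foxa2 (0.47) lie above the band.

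The sets that came next to Onecut1 in within-diet SD were looked at after their values were seen. Of the 12 sets after the main Onecut1 set, 1395255_at (no gene symbol) ran in parallel to it, from 103 in control liver 4 to 1337 in persimmon peel liver 1. Bcl6, a transcriptional repressor, ran the opposite way. Its set 1379368_at gave 223, 355, 934 and 1346 in the control livers and 224, 1262, 465 and 1009 in the persimmon peel livers. The order of the 8 livers by Bcl6 was the exact reverse of their order by Onecut1 (r = -0.92, a description of 8 livers chosen after it was seen, so no p is given).

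Growth hormone, which the pituitary of male rats releases in pulses, is known to raise Onecut1, Cish and Socs2 transcripts in liver, to lower Bcl6 and to maintain Igf1. These genes were therefore read in the same livers, with Socs3 and Igfals, as a description without a test. Cish, an inhibitor of cytokine signalling, gave 81.6, 48.2, 45.4 and 38.7 in the control livers and 79.5, 31.2, 62.3 and 43.0 in the persimmon peel livers with its brighter set 1378586_at. Like Onecut1 it was highest in control liver 1 and persimmon peel liver 1. Socs2, another such inhibitor, had signals from 2.18 in control liver 4 to 74.9 in control liver 1, with its set below the signal filter. Igf1, the main growth factor the liver secretes, had a range of 1.19-fold over the 8 livers in its brightest set 1370333_a_at, and did not share the pattern (r with Onecut1 0.09). Socs3 (r = -0.28) and Igfals (r = 0.54) followed Onecut1 less closely than Cish (r = 0.88). Growth hormone levels and the hour of tissue collection were not analysed here, and their part in the spread was not tested.

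**Figure D4:**
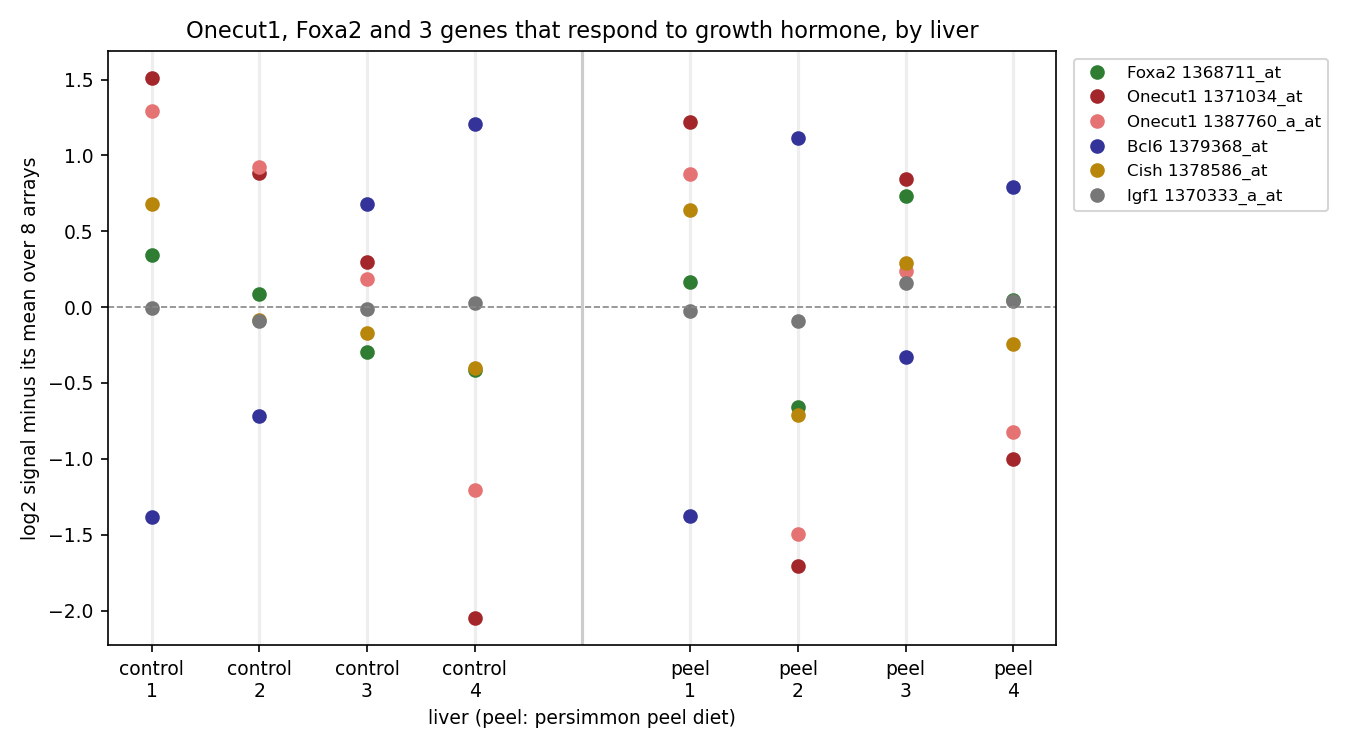
Log2 signal of Onecut1 (2 sets), Foxa2, Bcl6, Cish and Igf1 in each liver, minus the mean of that set over the 8 livers. In control liver 4 and persimmon peel livers 2 and 4 Onecut1 lies below its mean and Bcl6 above it, and Igf1 stays near 0 in every liver.

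Among the members, relations across the 8 livers were computed for the brightest set of each gene, 28 in all, with exact permutation tests adjusted over the 28. Foxa3 and Gata4 were the 1 pair past the threshold (r = 0.91, adjusted p = 0.0382, rho with adjusted p = 0.0111). Without the 2 livers farthest in Foxa3 r was 0.85, and within diets it was 0.92. After quantile normalization of the arrays, a choice made after seeing the data, r was 0.83 and did not pass (adjusted p = 0.0965). On the array 104 of 9174 genes had a higher r with Foxa3 than Gata4 had. Foxa3 and Cebpa had r = 0.88 (adjusted p = 0.0517), which was 0.42 without the 2 farthest livers. Foxa2 and Onecut1 had r = 0.75 (adjusted p = 0.192, rho with adjusted p = 0.268), 0.76 without the 2 farthest livers and 0.79 within diets. Foxa1 and Onecut1 had r = 0.76 (adjusted p = 0.192). With Foxa2, 551 genes had a higher r than Onecut1 had.

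The genes whose brightest set was most like that of a member over the 8 livers are given as a description. They were C2cd3 (r = 0.96) and an uncharacterised locus for Onecut1, Prmt5 (0.97) and Cog3 (0.96) for Foxa2, and Men1 (0.95) and Ppih (0.94) for Foxa1. For Foxa3 they were Myo18a and Mtmr10 (0.99 for both), and for Cebpa Spns1 (0.99) and Wdr74 (0.98). Cebpb was most like Serinc1 (0.93) and Kctd6 (0.92), Prox1 most like Itga9 and Arhgap30 (0.98 for both), and Gata4 most like Tmem101 (0.98) and Flii (0.97). With 9174 genes compared over 8 livers, the best partner of a gene had a median r of 0.97.

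Among other factors of the hepatocyte network, a few single probe sets were called lower. In 3 lists with 28 tested genes and 42 sets, 3 sets fell and 0 rose, where 4.53% of all tested sets were called lower and 0.425% higher. At an unadjusted p under 0.05, 12 were lower and 1 higher, against 13.4% and 6.19% of all tested sets. The fatty acid sensor Ppara had 1 set, and it fell from 94.3 ± 21.7 to 42.4 ± 9.82 (SD, n = 4 each; log2 change -1.16, adjusted p = 0.0066). Nr5a2, a nuclear receptor of bile acid synthesis, fell in its dimmest tested set, 1387573_a_at (-0.94, adjusted p = 0.0276), and its brightest set gave -0.11 (adjusted p = 0.728). The set between them in signal, 1384835_at, gave -0.52 (adjusted p = 0.0811). The Nr5a2 call was lost with no filter, without the intensity trend, with the covariate, and without control liver 3 (adjusted p = 0.0606) or 4 (0.103) or persimmon peel liver 3 (0.0744) or 4 (0.0628). Cebpg, a C/EBP relative that pairs with other leucine zipper factors, fell in 1371038_at from 237 ± 18.5 to 132 ± 22.9 (SD, n = 4 each; log2 change -0.86, adjusted p = 0.0036), while its brighter set gave -0.12 (adjusted p = 0.448). The calls of Ppara (-1.37) and Cebpg 1371038_at (-0.70) were also lost with the covariate, a fit that cannot separate diet from the beta-actin ratio. Hnf4a, the nuclear receptor at the centre of the network, gave 0.23 in its brightest set (adjusted p = 0.127) and -0.38 in the next (adjusted p = 0.143). The median change of the brightest sets was -0.26 for 10 nuclear receptors and homeobox factors, 0.12 for 7 relatives of the members and -0.015 for 11 cofactors and inhibitors, beside 0.014 for all named genes.

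Of the cofactors and inhibitors, 0 of 13 sets passed, and 3 had an unadjusted p under 0.05. The brightest genes of that list were Xbp1 at -0.015 (adjusted p = 0.972), Creb3l3 at 0.09 (0.731) and Atf5 at 0.04 (0.791). Trib1, which targets C/EBPα for degradation, gave -0.54 (adjusted p = 0.145). Without persimmon peel liver 2, Trib1 was at -0.72 (adjusted p = 0.0284) and passed, together with both tested sets of Klf15 as lower and Dbp as higher (0.61, adjusted p = 0.0267). Klf15 1381396_s_at also passed after median centring (-0.44, adjusted p = 0.03) and with array weights (-0.43, 0.0461). Trib1, Klf15 and Dbp were named after their values were seen.

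Among known targets of the factors, 3 of 24 tested sets (22 genes) fell and 0 rose, and at an unadjusted p under 0.05 there were 6 lower and 0 higher. Over all tested sets 4.53% were called lower and 0.425% higher, and 13.4% and 6.19% at the unadjusted threshold. They were Crp, an acute phase protein (-0.37, adjusted p = 0.0126), Tat, which begins tyrosine breakdown (-0.54, adjusted p = 0.01), and 1 of 2 sets of Cps1, the entry enzyme of the urea cycle (1370151_at, -0.55, adjusted p = 0.0022). The brighter Cps1 set gave -0.07 (adjusted p = 0.576). The calls of Crp and Tat were lost after quantile normalization (adjusted p = 0.0763 and 0.0643), without the intensity trend and without persimmon peel livers 1 and 3. That of Crp was also lost with no filter and without persimmon peel liver 1 (0.0529), and with the covariate its change was 0.012. The bile acid and sterol genes had 0 of 4 sets past the threshold, with Slc10a1 at -0.18 (adjusted p = 0.157), Cyp8b1 at -0.26 (0.351) and Cyp7a1 at 0.14 (0.857). The median change was -0.10 over the brightest sets of all target genes, and 0.014 over all named genes. These 2 medians cover unlike signal levels. Many target sets, such as Alb at 9643 ± 354 in the control livers (SD, n = 4), lay far above the array medians of 33.2 to 39.2. The part of signal level and of array scaling in this difference was not tested.

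Markers of other cells were read because Gata4, Prox1 and Onecut1 are also found outside hepatocytes. Of 7 tested sets for sinusoidal endothelial cells 1 fell (4.53% of all tested sets did), that of Fcgr2b (-0.42, adjusted p = 0.009). Lyve1 gave -0.24 (adjusted p = 0.113) and Kdr -0.10 (0.597) in their brightest sets. The second Lyve1 set, 1382732_at, gave 0.04 (adjusted p = 0.863). Among the brightest sets of the 6 tested genes, 5 were lower on the persimmon peel diet and 1 was higher. The summed signal of these brightest sets ran from 4729 to 4997 in the control and from 3879 to 4865 in the persimmon peel livers. For lymphatic endothelial cells, which also use Prox1, Flt4 gave 0.18 (adjusted p = 0.722), and the sum with Lyve1 overlapped between the diets (1647 to 1881 and 1407 to 1678). Of the cholangiocyte markers only Epcam was above the filter (0.0025, adjusted p = 0.995), and Krt19, Krt7, Spp1, Cftr and Muc1 were below it. No set of the stellate, macrophage or lymphocyte lists passed, out of 8, 4 and 2 tested. Their leading genes by signal were Col3a1 (-0.13, adjusted p = 0.641) and Reln (-0.04, 0.916), Clec4f (0.20, 0.454) and Cd68 (0.09, 0.819), and Ptprc (-0.27, 0.268). Of 11 hepatocyte marker sets 2 fell, those of Tat and Cps1 given above, and 4 were lower at an unadjusted p under 0.05. The brightest sets of all 9 genes had lower means. Over all tested sets 4.53% were called lower, 13.4% were lower at the unadjusted threshold and 48.6% had a higher mean. Those shares cover every signal level above the filter, while the hepatocyte marker sets are all bright. The part of signal level and of array scaling in the lower means was not tested. Apart from Cyp2e1 these markers are also among the targets above, so they add no separate result. The leading hepatocyte markers were Serpina1 (-0.08, adjusted p = 0.416) and Cyp2e1 (-0.10, 0.367). The part of other cell types in the Gata4 and Prox1 values was not tested.

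**Figure D5:**
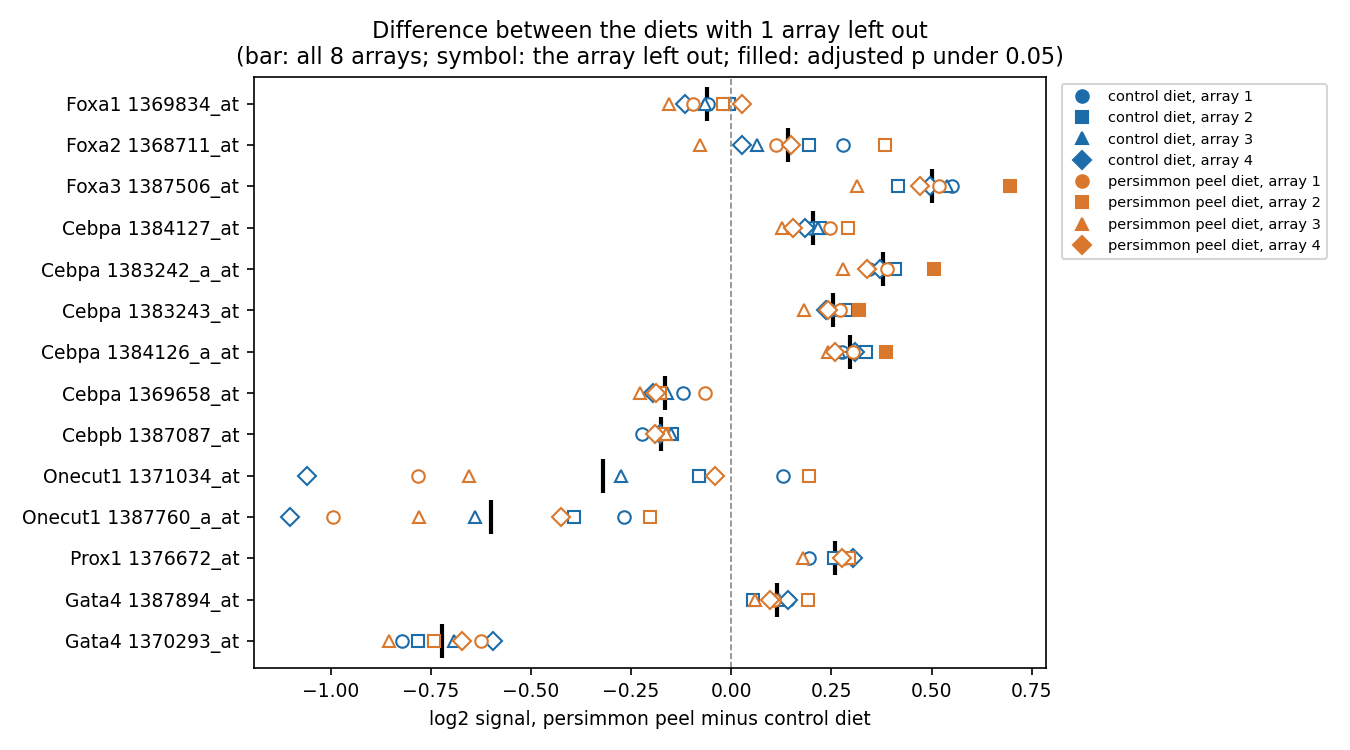
Difference in log2 signal between the diets for the 14 tested member sets with all arrays (bar) and with each array left out (symbols, filled where the adjusted p was under 0.05). The 4 filled symbols, for Foxa3 and 3 Cebpa sets, all belong to the fit without persimmon peel array 2.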

How the data were processed

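Linear intensity was deposited for 31099 probe sets on each of 8 arrays, and the submitters' processing notes name MAS5, which summarises each probe set into 1 signal. Its scaling target is not given here, and detection calls were not used. Genes were named from the platform annotation, updated through RefSeq (names only, 20758 sets found there). Of 31042 sets other than control sets, 20826 had 1 symbol, 436 several and 9780 none in that table. Values were taken to log2 without further normalization, since array medians spanned 0.24. The dimmest 50% of sets were left out, which left 15521. The diets were compared with limma 3.58.1 (R 4.3.3, lmFit and eBayes with intensity trend, two-sided), with Benjamini-Hochberg adjustment over these sets and a threshold of 0.05. SEs are limma's, means and SDs are of linear signals, and the adjusted p of a set comes from this fit unless another setting is named. Differences between sets of 1 gene were fitted separately, without the intensity trend. Labels give 4 numbered livers per diet. Same-numbered arrays did not deviate together (correlations -0.08 to 0.05), so the numbers were not used as pairs. Named were all member sets, every called gene of each list, or its brightest 3 (markers 2), and the 2 genes most like each member. The fit was tested on simulated data. The members and lists were chosen with earlier results of these data known, and so were the alternatives with the beta-actin covariate, without persimmon peel arrays 1 and 3, and with the brightest set per gene. Each array is 1 rat, by the series' design text. The number of arrays limits the precision.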

Additional observations from a re-analysis of the deposited data

Results flagged for a closer look

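One array stood far from the others of its diet. In Prox1 1376672_at, persimmon peel array 3 had a log2 signal of 10.81 (a signal of 1796), while the other persimmon peel arrays lay between 1414 and 1467. Among 38 groups of 4 arrays examined, over the 15 member sets and 4 control ratios, this was the 1 found. In each such group chance alone gives a find in about 1 of 20 cases. A single find among 38 groups is therefore no more than chance gives.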

How the results depend on the processing

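In all, 20 alternatives were run. Member sets called higher numbered 4 after quantile normalization and 0 to 4 with each array left out in turn, and member sets called lower numbered 1 after quantile normalization, 1 after median centring, 1 with array weights and 0 with any array left out. The lower call was Gata4 1370293_at each time, which passed the filter only through the control livers, so it supports nothing further. Over the whole array, sets called higher numbered 66, and 271 after quantile normalization, 26 with no filter, 41 in the upper 30% by signal, 33 without the intensity trend, 0 with the beta-actin ratio as a covariate, 1 without persimmon peel arrays 1 and 3, 5 with the brightest set per gene and 12 to 267 with each array left out. Sets called lower numbered 703, and 441, 0, 75 and 78 with no filter, the covariate, without persimmon peel arrays 1 and 3 and with the brightest set per gene, and 295 to 942 with each array left out. After quantile normalization 68.8% of the calls were lower, against 91.4% as reported. Partner sets called lower numbered 3, and 1 in the upper 30%, 0 with the covariate, 1 with the brightest set per gene and 2 to 6 with each array left out, and partner sets called higher 0 to 1. Target sets called lower numbered 3, and 1 after quantile normalization, 1 without the intensity trend, 0 with the covariate, 1 without persimmon peel arrays 1 and 3 and 2 to 4 with each array left out. With the covariate, which moved the median of all sets by -0.10, the sign changed for Foxa2 (-0.96), Foxa3 (-0.25), Gata4 1387894_at (-0.23) and Cebpa 1369658_at (0.16), and for the bright Cebpa sets 1384127_at (-0.0155), 1383242_a_at (-0.11) and 1384126_a_at (-0.0565). The Onecut1 sets kept their sign there, at -3.48 and -3.17, uncalled. The ratio did not overlap between the diets, so the covariate fit cannot separate diet from the ratio. The sign also changed for Foxa2 without persimmon peel arrays 1 and 3 (-0.23) or array 3 (-0.0785), for Foxa1 without persimmon peel array 4 (0.027), and for Onecut1 1371034_at without control array 1 (0.13) or persimmon peel array 2 (0.19). With each array left out Foxa1 ran from -0.157 to 0.027, Foxa2 from -0.0785 to 0.385 and Onecut1 1371034_at from -1.06 to 0.19, and Onecut1 1387760_a_at from -1.10 to -0.20, Gata4 1387894_at from 0.054 to 0.19 and Cebpa 1369658_at from -0.23 to -0.065. The cause of these changes was not tested. With the replicate number as a block, 60 sets were higher and 596 lower, and 0 member sets were called. Of the relations, leaving out any 1 array kept r between 0.87 and 0.96 for Foxa3 and Gata4 and between 0.65 and 0.81 for Foxa2 and Onecut1, both choices made after seeing the data.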

Other observations

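Persimmon peel array 3, the highest in 9 of the 14 member sets, also stood apart in Lcn2, a secreted acute phase protein with 1 of the widest spreads within diets. Its set 1387011_at gave 708 in that liver and 48.3 to 77.2 in the other 7 livers. After quantile normalization array 3 was the highest in 5 of the 14 member sets, where it was highest in 20.2% of all tested sets.

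Of the 12 sets that followed the main Onecut1 set in within-diet SD, 1395255_at, 1372727_at, 1391718_at and 1385355_at had no gene symbol and rose and fell with it over the 8 livers (r = 0.97, 0.96, 0.94 and 0.90, described after they were seen).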
